A study of Mus musculus with 30 samples.

Results

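The cells described here are neutrophils without detected Siglecf RNA in MOC1E1 tumours. They were chosen from all 11528 cells of the MOC1E1 single-cell tables by their own transcripts, counted as unique molecular identifiers (UMIs, 1 per captured RNA molecule). A cell was a member if it had no UMI of Cd3e, Cd3d, Cd3g, C1qa, C1qb, C1qc, Siglecf or H2-Aa, at least 1 UMI of Csf3r and at least 1 UMI of G0s2, Cxcl2 or Hcar2. The rule found 879 cells, 386 of 3473 in the isotype library, 313 of 4928 after anti-PD-1 and 180 of 3127 after anti-CTLA-4. Cells of the same rule with 1 or more UMIs of Siglecf were 100, and are called Siglecf-positive neutrophils. Monocytes were 551 cells with at least 5 UMIs of Lyz2 and no UMI of Csf3r, Cd3e, Cd3d, Cd3g, C1qa, C1qb, C1qc or H2-Aa. Siglecf was not used to choose them. By Lyz2 and Csf3r alone there were 1540 such cells.

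MOC1E1 (MOC1esc1 in the growth protocol) is a mouse oral squamous carcinoma line named after MOC1, grown as tumours in C57BL/6J mice. The single cells are labelled as immune cells from those tumours, from mice given 1 of 3 antibodies into the peritoneum on days 3, 6 and 9 after inoculation: an isotype control, anti-PD-1, or anti-CTLA-4. PD-1 and CTLA-4 restrain T cells, and the series concerns T cells while either is blocked. Each treatment has 1 library, and the number of mice behind it is not given in the labels. Whole-tumour RNA came from untreated MOC1 and MOC1E1 tumours, 3 libraries each, and is the only replicated measurement used.

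Neutrophils are short-lived granulocytes that leave the bone marrow with most of their granule proteins already made. Csf3r is the receptor for G-CSF, the growth factor that drives their production, and Cxcr2 is the chemokine receptor that brings them into tissue. In tumours they are known for a range of states, from recently arrived cells rich in S100a8 and S100a9 to cells that express chemokines, hypoxia genes and, in some models, Siglecf, a sialic acid binding receptor otherwise found on eosinophils.

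Cxcl2 and Cxcl3 are neighbouring genes for chemokines that bind Cxcr2. Their promoters are shown because Cxcl2 helped to choose the members and because Cxcl3 was among the genes that differed most between the treatment libraries and between the bulk tumours. Each line gives the 150 bases before the RefSeq gene start in build GRCm38.p6, read 5′ to 3′ on the plus strand, with matches to a form of the NF-κB motif (GGG, then any 3 bases, then TTCC) on either strand in capitals.
Cxcl2, chr5:90903749-90903898: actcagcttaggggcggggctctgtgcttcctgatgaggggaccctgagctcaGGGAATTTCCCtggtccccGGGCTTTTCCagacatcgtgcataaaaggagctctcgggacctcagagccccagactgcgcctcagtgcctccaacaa
Cxcl3, chr5:90785951-90786100: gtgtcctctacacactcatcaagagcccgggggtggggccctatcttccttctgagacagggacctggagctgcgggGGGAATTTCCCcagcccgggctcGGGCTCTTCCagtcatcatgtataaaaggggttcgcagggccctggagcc
Each window held 2 matches on the plus strand and 1 on the minus strand, which overlaps the first. The plus-strand matches lay at positions -97 to -88 and -78 to -69 before the start of Cxcl2, and at -73 to -64 and -50 to -41 before the start of Cxcl3. A match was present in 1001 of 32851 windows of this length, or 3.05%. In the 300-base promoters the share was 5.56%, and 8 of 19 genes with a promoter in the table held one, among 27 looked up (the cytokine and chemokine list and the 4 genes that chose the members); Csf3r was one of the 8. A match is a description of the letters and shows no binding.

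The members held 1928902 UMIs, with a median of 1372 per cell and a range of 511 to 14168. By library the median was 1445.5 for isotype, 1638 for anti-PD-1 and 1036 for anti-CTLA-4. Whole libraries held 14766019 to 26937406 UMIs. No cell of the table had more than about 5% mitochondrial UMIs. The libraries shared 13 to 26 barcodes pair by pair, and no shared barcode was a member in both libraries of a pair. None of the 879 members had a T cell receptor contig, which allows a share of up to 0.341%, against 79.1% of cells with at least 3 Cd3 UMIs. Of those T cells, 2.98% for isotype, 3.26% for anti-PD-1 and 0.846% for anti-CTLA-4 held a Csf3r UMI, and 1.13%, 0.777% and 0.498% held one of an entry gene as well.

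The genes that chose the members are given as a description. Hcar2, a receptor for hydroxy-fatty acids, was detected in 570 members, Cxcl2 in 553, G0s2, an inhibitor of the lipase that breaks down stored fat, in 442, and all 3 together in 204. Levels below are UMIs of a gene scaled to the usual fixed total over all genes of the named cells (CPM), given in the library order isotype, then anti-PD-1, then anti-CTLA-4. Csf3r stood at 1689, 1245 and 1877 CPM and Hcar2 at 724, 1168 and 1738 CPM. G0s2 stood at 551, 1301 and 2307 CPM and Cxcl2 at 1696, 3578 and 7766 CPM, highest with anti-CTLA-4 and lowest with isotype.

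Markers that the rule did not name showed that the members were a mixture. S100a8 and S100a9 encode calprotectin, the most abundant protein pair of the neutrophil cytosol. Of the 879 members, 185 had 5 or more UMIs of Lyz2, the lysozyme that monocytes transcribe strongly, and these held 49.9% of all member UMIs. No UMI of S100a8 or S100a9 was found in 95 of those 185, in 53 of the 694 members with fewer Lyz2 UMIs, in 526 of 551 monocytes and in 6 of 100 Siglecf-positive neutrophils. The 185 cells stood at 834 CPM for Ccr2, the receptor that brings monocytes into tissue, at 1525 for Ly6c2, 1524 for Chil3, 542 for F13a1 and 721 for Fn1. The other 694 stood at 18.6, 114, 8.28, 1.03 and 1.03 CPM for these genes, and the monocytes at 943, 2001, 1636, 525 and 908. Most of the 694 thus carried calprotectin. The 185 (Lyz2-high members) were of more than 1 kind. In 59 of them calprotectin lay above the median of the Lyz2-low cells (26943 CPM), and these stood at 1587 CPM for Cxcr2, 17.6 for Ccr2 and 0 UMIs for F13a1 and Fn1, with a median of 1760 UMIs per cell. The other 126 stood at 63.6 CPM for Cxcr2, 943 for Ccr2 and 817 for Fn1, with a median of 7252 UMIs, and held 44.0% of all member UMIs against 5.88% in the 59. Summed levels of the 185 therefore mostly reflect the 126, and leaving out the 185 also leaves out the 59 cells rich in calprotectin. No doublet caller was run; all 12 members with 10000 or more UMIs were among the 185. Values are therefore given for all members and, where it matters, for the 694, called Lyz2-low members (295, 240 and 159 cells by library). That division was made after seeing the data.

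**Figure D1:**
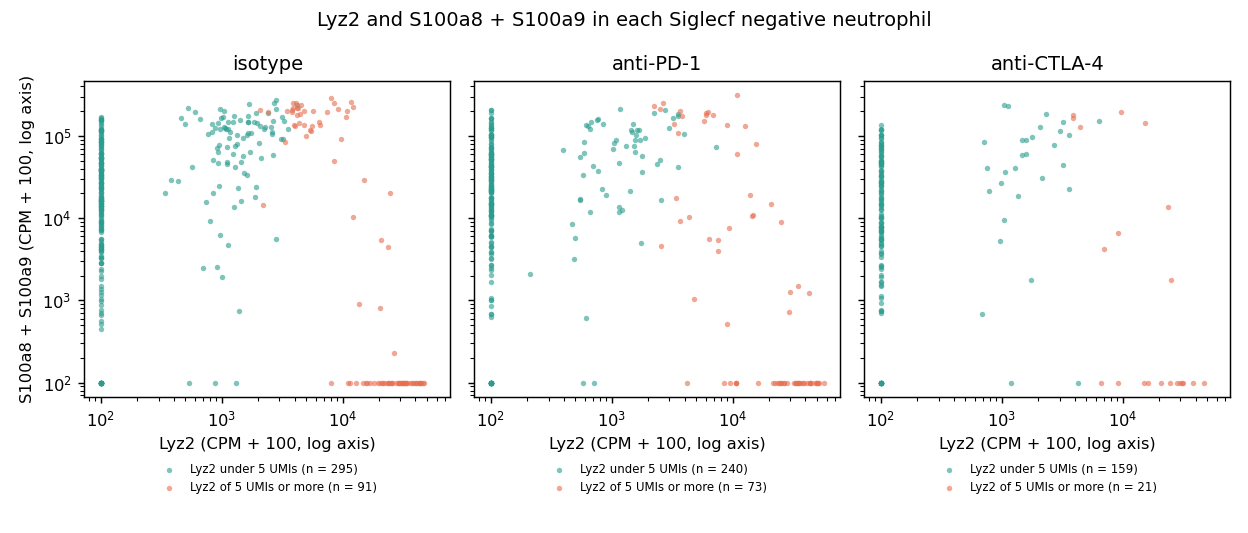
Each point is 1 member, placed by its Lyz2 CPM (x axis, plus 100, log scale) and its summed S100a8 and S100a9 CPM (y axis, plus 100, log scale), in 1 panel per library, with colour for Lyz2 counts under 5 or of 5 and more. The 185 cells with 5 or more Lyz2 UMIs include 95 on the floor of the y axis, against 53 of the 694 others.

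Eosinophils also carry Siglecf, and the rule kept cells with a Siglecf UMI out of the members. Eosinophil markers were read in the members for eosinophils without a detected Siglecf UMI. Of 6 eosinophil markers in the table, Prg2, the major basic protein, and Alox15 had 0 UMIs, and the receptors Ccr3 and Il5ra had 4 and 2 UMIs. The list summed to 297, 211 and 307 CPM in members against 77.1, 123 and 130 in monocytes, mostly from Siglece, which neutrophils also express (394 UMIs), and Ear2 (107 UMIs). In Siglecf-positive neutrophils the eosinophil list summed to 426, 385 and 145 CPM, the last from 4 cells. In members, granule genes of immature neutrophils summed to 1582, 1820 and 799 CPM against 1772, 2493 and 2233 in monocytes. Among them Camp and Ngp, genes of marrow precursors, had 3 and 8 UMIs, while Lcn2, which binds bacterial iron carriers, had 339 CPM, lactoferrin (Ltf) 50.8 and Cd177 77.2, against 3.51, 1.46 and 116 in monocytes. Ly6g, the usual surface marker of mouse neutrophils, had 27 UMIs in 18 cells, or 14.0 CPM, against 0.293 CPM in monocytes. Its low count is a limit of the label at this depth.

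Cells at the edge of the rule differed in the same marker. The 253 members with 1 Csf3r UMI stood at 4931 CPM for S100a8 and 183 for Cxcr2, and the 626 with 2 or more at 23206 and 906. Monocyte genes ran the other way, with Lyz2 at 20187 CPM in the 253 against 9128, and Ccr2 at 687 against 272. Just outside, 386 cells with an entry gene but no Csf3r stood at 2361 and 54.6 CPM, and 685 cells with Csf3r but no entry gene stood at 2541 CPM for S100a8. Those 685 stood at 29667 CPM for Lyz2 and 919 for Ccr2, with a median of 5641 UMIs. The 386 stood at 14328 CPM for Lyz2 and 500 for Ccr2, below the 253 members. The 200 members with 1 UMI of the entry genes stood at 12504 CPM for S100a8, 23270 for Lyz2 and 754 for Ccr2. S100a8 and monocyte genes thus did not run against each other at every edge, and the part of monocyte-like cells was not tested. The 17 cells left out for 1 UMI of H2-Aa stood at 3972 CPM for S100a8. For Siglecf, cells with 1 UMI (52) stood at 19785 CPM for S100a8 and those with 2 or more (48) at 24425, with no drop. Other genes did differ: the 52 and the 48 stood at 903 and 1888 CPM for Lyz2 and at 0 for Ccr2. Those levels lay below both Csf3r groups of members. Retnlg stood at 636 CPM in the 52 and at 46.9 in the 48.

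Against the monocytes of the same libraries, the members were higher in calprotectin, in chemokine and interleukin-1 receptors and in inflammatory cytokines, and lower in a set of monocyte genes. Because both sets were chosen by transcripts, this is a description with no test. Ratios are log2 of CPM with 0.5 UMI added, averaged over the 3 libraries with their SD, and a gene counted as higher or lower when it was at least 2-fold apart the same way in every library. Of 7604 genes with enough UMIs (10 in all and 3 per library in the higher set), 617 were higher (8.11%) and 276 lower (3.63%), and the median gene stood at -0.27. With scaling by the median ratio over genes (median-of-ratios) in place of totals the split was 688 and 182 and the median -0.12. In Lyz2-low members 902 of 7329 genes were higher (12.3%) and 1460 lower (19.9%), with a median of -0.55. Of the 617 genes, 584 were also higher in Lyz2-low members (94.7% of the first list, 64.7% of the second), and of the 276, 251 were also lower (90.9% and 17.2%).

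Of 30 neutrophil markers, 29 passed the count limit, 22 were higher, none was lower and their median log2 ratio was 4.18. S100a8 stood at 19404, 14005 and 13549 CPM in members and at 216, 85.2 and 5.10 CPM in monocytes, a mean log2 ratio of 8.30 (SD 2.42, n = 3). S100a9 stood at 20610, 15252 and 15041 CPM, with a mean ratio of 8.54. The members lay far above the monocytes in every library, and the spread between libraries was wider in the monocytes than in the members. Retnlg, a resistin-like secreted protein of neutrophils, stood at 1760, 1058 and 988 CPM against 15.9 CPM in isotype monocytes and 0 UMIs in the others. Mmp9, the gelatinase of the tertiary granules, stood at 700, 436 and 488 CPM against 8.32, 2.35 and 0. Asprv1, an aspartic protease, had 280 CPM over all members against 0.878, Stfa2l1, a cystatin family protease inhibitor, 289 against 1.46, and Wfdc21 313 against 2.34. Slc40a1, the iron exporter, had 130 CPM against 0.293, Gm5483 391 against 3.51 and H2-Q10 291 against 2.34. Together with Cxcr2 and Il1r2 below, these were the 12 highest ratios among genes with at least 100 CPM. Only 7 of 14 granule proteins of immature neutrophils passed the count limit, of which 3 were higher and none lower, with a median of -0.73.

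Surface receptors, the longest list, had the most higher genes of any list, with a share close to that of the neutrophil markers and a lower median. All 37 passed the limit, 28 were higher and none lower, with a median of 2.73 (3.29 in Lyz2-low members, where 29 were higher and 1 lower). Cxcr2 stood at 742, 468 and 816 CPM against 4.54, 1.17 and 0 in monocytes. Il1r2, the decoy receptor that binds interleukin-1 without signalling, stood at 626, 700 and 918 CPM against 8.32, 13.5 and 2.55, a mean log2 ratio of 6.58 (SD 1.18, n = 3). Both genes were therefore near the floor in monocytes. Cxcr4, which holds neutrophils in the marrow, had 792 CPM over all members against 48.3, and the tetraspanin Cd9 989 against 26.9. Ccrl2, a chemerin-binding receptor, stood at 731, 1207 and 1738 CPM against 19.7, 27.0 and 43.4.

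Among cytokines and chemokines, 11 of 17 that passed the limit were higher and none lower, with a median of 3.60. Il1b stood at 4877, 3797 and 9750 CPM in members against 226, 244 and 518 CPM in monocytes, a mean log2 ratio of 4.21 (SD 0.24, n = 3). Its antagonist Il1rn stood at 1470, 1688 and 4709 CPM against 101, 78.1 and 424. Both genes were highest with anti-CTLA-4 in either cell set. Ccl3 and Ccl4, chemokines for T cells and monocytes, had mean log2 ratios of 3.92 and 4.70. Csf1, the macrophage growth factor, had 498 CPM over all members against 10.2, Tnf 261 against 21.4 and Osm 360 against 76.4. Ccl6 was level with monocytes, at 1742 CPM against 1851.

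Other lists also held higher genes. In the hypoxia and glycolysis list 13 of 22 were higher and none lower (median 1.27), led by Hilpda, a lipid droplet protein induced by low oxygen, at 560 CPM against 19.3. In the immune regulation list 8 of 14 were higher and none lower (median 2.88). There Cd274, the ligand PD-L1, stood at 264, 580 and 1156 CPM against 24.2, 18.2 and 97, and Irg1, which makes itaconate, at 897, 1196 and 3955 against 9.83, 24.7 and 58.7. Ptgs2, the inducible prostaglandin synthase, had 385 CPM against 12.3, and Arg2, the mitochondrial arginase, 176 against 3.22. The list of genes known from Siglecf-high tumour neutrophils, which these Siglecf-negative cells also expressed, had 14 higher and none lower of 22 (median 2.61). In the interferon list 11 of 31 were higher and 1 lower (median 0.91): Isg15 had 2283 CPM against 488 and Slfn4 1035 against 67.0, and Mx1 was the lower gene at 15.0 against 103. Survival genes had 7 higher and none lower of 14, with Mcl1, which neutrophils depend on, at 1237 CPM against 479. The NADPH oxidase, the enzyme of the oxidative burst, differed least: 1 of 7 subunit genes was higher, Ncf1 at 360 CPM against 154.

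Monocyte genes were lower in the members, and more of them in Lyz2-low members. Of 26 monocyte markers, 7 were lower and 1 higher in all members (median -1.04), and 21 were lower and 1 higher in Lyz2-low members (median -3.83). Crip1 stood at 1472, 1606 and 697 CPM in all members against 4325, 4253 and 3902 CPM in monocytes, and at 52.8 CPM in Lyz2-low members. Tmem176b, a channel-like membrane protein of monocytes, had 50.3 CPM against 216, and 0 UMIs in Lyz2-low members. The other lowest ratios were those of Phf11b (57.5 against 175), Pdlim1 (58.6 against 140), Lgals1 (202 against 574), S100a10 (235 against 810), Ms4a4c (171 against 584), Nupr1 (65.3 against 185), Aif1 (35.3 against 139), Sepw1 (199.6 against 548), Tagln2 (358 against 1006) and Ly86 (194 against 564). The part of the 185 cells in these values was not tested beyond leaving them out.

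**Figure D2:**
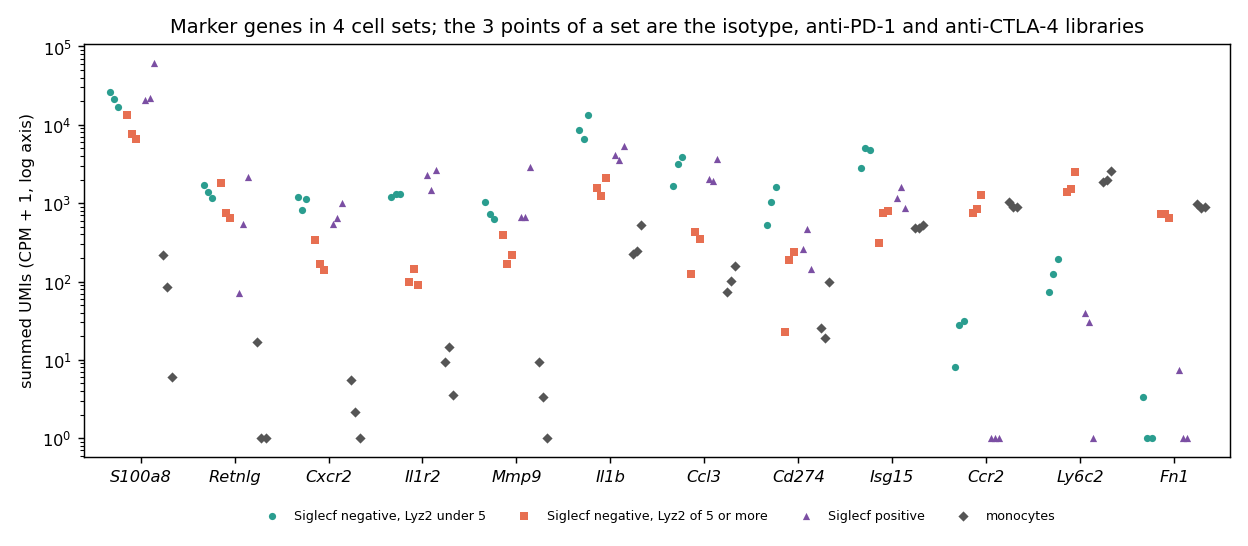
CPM plus 1 (log axis) of 12 genes in 4 cell sets, with 1 point per library in the order used for CPM. S100a8, Retnlg, Cxcr2 and Il1r2 lie high in Lyz2-low members and near the floor in monocytes, while Ccr2, Ly6c2 and Fn1 lie high in monocytes and in the members with 5 or more Lyz2 UMIs.

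Siglecf-positive neutrophils were near the Siglecf-negative cells in S100a8 (22394 CPM against 16435 in all members), Cxcr2 (587 against 638) and Il1b (3888 against 5047). All members include the Lyz2-high cells. In Lyz2-low members Cxcr2 and Il1b lay above these levels of the positive cells in every library, so for these genes the nearness holds for all members only. The positive set is small, with 57, 39 and 4 cells, so every ratio that needs the anti-CTLA-4 library rests on 4 cells. Over all members, 44 of 2577 genes were at least 2-fold higher in Siglecf-negative cells in every library (1.71%) and 12 lower (0.466%). With median-of-ratios scaling the split was 123 and 4, and the median gene moved from -0.01 to 0.50. Without the 4 positive cells of the anti-CTLA-4 library the counts were 361 and 384. The 6 highest ratios were of Ccr2, Ccl9, Fn1, Ly6c2, Chil3 and Tmsb10. Ccr2 stood at 426 CPM against 0 UMIs in positive cells and Ly6c2 at 818 against 33.9, and they stood at 18.6 and 114 CPM in Lyz2-low members. Fn1 and Chil3 turned direction there, at -2.39 and -1.08 on the log2 scale.

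In Lyz2-low cells of both kinds, 52 of 2159 genes were higher in Siglecf-negative cells (2.41%) and 19 lower (0.88%). Of the 44 genes above, 17 were among these 52. The levels that follow set Lyz2-low members against all Siglecf-positive cells. Stfa2l1 had 486 CPM against 79.0, Cxcl3 188 against 7.53, and Smox, the spermine oxidase, 867 against 139. Adam8, a membrane-bound protease, had 321 CPM against 37.6. Gbp2, an interferon-induced GTPase, had 1394 CPM against 335. Of the interferon list 5 of 27 were higher and none lower (median 1.28), of neutrophil markers 5 of 29 and none lower (median 0.81), of cytokines 3 of 14 and none lower (median 0.86), and of surface receptors 4 of 35 and none lower (median 0.53).

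Genes lower in Siglecf-negative cells included Rcan1, an inhibitor of calcineurin, at 116 CPM against 448, B4galnt1, a ganglioside synthase, at 82.8 against 305, and Apoe at 83.8 against 380. Apoe was past the fold in Lyz2-low cells only, and not over all members. Over all members Clec4n, the receptor Dectin-2, had 424 CPM against 1257, Igfbp6 132 against 448 and Entpd3 69.5 against 211. Il1r2 was lower as well, at 626, 700 and 918 CPM against 2319, 1489 and 2611, but was not past the fold in Lyz2-low cells (mean log2 ratio -0.72). Retnlg had no fixed direction: members stood at 1760, 1058 and 988 CPM and positive cells at 69.9, 542 and 2176. Ltc4s, the leukotriene C4 synthase, had 72.1 CPM against 478 but did not pass in every library, because the 4 anti-CTLA-4 cells had 0 UMIs.

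The share of Siglecf-positive cells among all neutrophils of the rule was 12.9% in the isotype library (exact 95% interval 9.89 to 16.3%), 11.1% after anti-PD-1 (8.0 to 14.8%) and 2.17% after anti-CTLA-4 (0.595 to 5.47%). Depth differed between these libraries, and a Siglecf count of 0 in a shallow cell does not show that it lacked Siglecf. When cells were thinned to 1000 UMIs, with 88, 63 and 86 shallower cells left out, the shares were 8.73%, 7.96% and 3.06%, and the last interval, 0.636 to 8.69%, overlapped the others. With 1 library per treatment there is no test of this difference.

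Lyz2-low members varied among themselves along a few gene pairs. In each library, Pearson's r across cells was computed for log CPM of pairs among the 150 most abundant genes, as a description: cells of a library share depth and free RNA, and the values are sparse. S100a8 and S100a9 went together (r = 0.83, 0.86 and 0.78), as did Ccl3 and Ccl4 (0.63, 0.69 and 0.61), Mif and Hilpda (0.52, 0.53 and 0.49) and the interferon genes Isg15 and Slfn4 (0.44, 0.64 and 0.48). Other pairs ran against each other: Il1b and Hilpda at -0.48, -0.50 and -0.38, and Ccl3 and Retnlg at -0.37, -0.35 and -0.38. Pairs were chosen by their weakest r over the 3 libraries, so the same sign in each library follows from that choice.

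The last pair can be seen as levels. The 219 Lyz2-low members with a Retnlg UMI and the 475 without one had like depth, with medians of 1252 and 1188 UMIs. Cells with Retnlg stood at 44080 CPM for S100a8 against 12839, at 1567 for Cxcr2 against 791 and at 220 for Mmp8, a neutrophil collagenase, against 13.5. Cells without Retnlg were higher in Ccl3 (3464 CPM against 717), Ccl4 (5834 against 1897), Cd274 (1133 against 390), Hilpda (1305 against 333), the cytokine Mif (2159 against 617) and Ltc4s (179 against 13.3). The granule collagenase is known from blood neutrophils, and the second group holds chemokine, hypoxia and checkpoint genes. By library, Ccl3 stood at 264, 1040 and 1274 CPM with Retnlg and at 2315, 4188 and 4673 without it, so every level without Retnlg lay above every level with it. Il1b had the other order, at 11019, 9719 and 20717 CPM with Retnlg against 7285, 5155 and 11227. Since the cells were divided by Retnlg after its pattern was seen, no test was made.

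Neutrophils made up a smaller share of the checkpoint antibody libraries than of the isotype library when all cells were counted. Members were 11.1% of cells in the isotype library (exact 95% interval 10.1 to 12.2%), 6.35% after anti-PD-1 (5.69 to 7.07%) and 5.76% after anti-CTLA-4 (4.97 to 6.63%). Among cells without Cd3 UMIs they were 16% (14.5 to 17.5%), 11.1% (9.94 to 12.3%) and 17.5% (15.2 to 19.9%). The anti-CTLA-4 difference thus changed sign with the denominator, and the anti-PD-1 difference did not. Among cells without Cd3 the anti-CTLA-4 difference was 1.51 points, but -1.30 with Csf3r of at least 2 and -0.788 in cells thinned to 1000 UMIs. Cells with at least 3 Cd3 UMIs numbered 973 in the isotype library, 1930 after anti-PD-1 and 2010 after anti-CTLA-4. Lyz2-low members were 12.2%, 8.49% and 15.4% of cells without Cd3, and monocytes 8.52%, 9.44% and 7.57%. The intervals cover counting error only, and which cells entered each library cannot be told apart from treatment.

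With anti-PD-1, few genes of the members differed from isotype, and in lists of 5 or more tested genes at most 5 were past the 2-fold limit. Each treatment is 1 library, so nothing in this and the following comparison was tested and a gene counted when it was at least 2-fold apart with at least 30 UMIs in the higher library. Of 3927 genes, 75 were higher (1.91%) and 59 lower (1.5%), and in Lyz2-low members 70 of 2284 were higher (3.06%) and 77 lower (3.37%). Of the hypoxia and glycolysis list 3 of 22 were higher and none lower (median log2 ratio 0.40, against -0.04 over all genes): Hilpda, Higd1a and Ero1l. The Siglecf-high state list had 4 higher and 1 lower of 22 (median 0.16), early response and stress genes 3 higher and none lower of 20 (median 0.14), and lipid and metabolite handling none higher and 3 lower of 12 (median -0.07). In Lyz2-low members Hilpda stood at 471 CPM in the isotype library (exact Poisson 95% interval 408 to 541) and 1708 after anti-PD-1 (1578 to 1846). Higd1a, a mitochondrial hypoxia protein, stood at 176 and 445 CPM. The glycolytic enzyme Tpi1 was just under the limit, at 726 and 1439. Hilpda was also higher in the monocytes of the anti-PD-1 library, by 1.56 on the log2 scale.

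Of the interferon list 4 of 28 were higher and 1 lower (median 0.32). In Lyz2-low members Rsad2, which encodes the antiviral protein viperin, stood at 940 CPM in the isotype library and 2438 after anti-PD-1, Ifit2 at 124 and 370, Usp18 at 103 and 282, and Isg15, under the 2-fold limit, at 2838 and 5029. Ccl3 stood at 1659 and 3139 CPM and Cd274 at 527 and 1023, also just under 2-fold. The leukotriene enzyme Alox5 was lower, with 90 UMIs in 74 isotype members and 22 UMIs in 21 anti-PD-1 members, a ratio of 3.67 (2.28 to 6.14). Of 29 neutrophil markers none was higher and 1 was lower (median -0.26).

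The highest anti-PD-1 ratios rested on few cells. Mcpt2, a mast cell protease, had 162 UMIs in 1 cell, Ly6d 51 UMIs of which 49 were in 1 cell, and the antibody gene Igkv4-57 34 UMIs in 1 cell. Gzmb, the cytotoxic protease, had 66 UMIs in 5 cells, 35 of them in 1 cell, against 3 UMIs with isotype, a ratio of 24.6 (8.04 to 122). The stress cytokine Gdf15 had 62 UMIs in 15 cells against 3, a ratio of 23.1 (7.54 to 115), and the macrophage glycoprotein Gpnmb 73 UMIs in 10 cells against 5, a ratio of 16.3 (6.67 to 51.7). The T and NK cell list, with 4 of 4 tested genes higher, summed to 115 CPM in the isotype library, 771 after anti-PD-1 and 123 after anti-CTLA-4, with 1 of 16 markers at 0. Without each gene's highest cell, 48 genes were higher in place of 75, and 39 lower in place of 59 (38 lower when thinned to 1000 UMIs).

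With anti-CTLA-4, most tested cytokine and chemokine genes and several receptor, interferon and survival genes were higher than with isotype. Of 3137 genes, 201 were higher (6.41%) and 503 lower (16%), with a median of -0.39. Median-of-ratios scaling gave 285 higher and 323 lower, with a median of -0.19, and cells thinned to 1000 UMIs gave 93 and 182. In Lyz2-low members 106 of 1921 were higher (5.52%) and 366 lower (19.1%), of which 96 and 153 were shared with all members. The share of Lyz2-high members, 11.7% against 23.6%, moved with these counts, as did the median depth, and Lyz2-low values are therefore given below. Scaled to totals, gene levels here are relative to a median gene that stood 0.40 lower on the log2 scale.

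Of 14 cytokines and chemokines that passed the limit in Lyz2-low members, 8 were higher and none lower (median 1.2). Cxcl3 stood at 112 CPM (exact Poisson 95% interval 82.9 to 149), 131 (96.6 to 173) and 517 (413 to 639). Few cells held these UMIs. In cells with and without Retnlg, Cxcl3 was detected in 0% and 3.09% for isotype, 3.61% and 3.82% for anti-PD-1, and 8.57% and 12.9% for anti-CTLA-4. The Poisson intervals leave out the spread between cells and are too narrow where few cells hold the UMIs. Osm, a cytokine of the interleukin-6 family, stood at 363, 493 and 1289 CPM, Tnf at 347, 381 and 930, Il1a at 223, 160 and 608, and Il1rn at 2784, 2955 and 6243. In each of these the anti-CTLA-4 library stood apart and the other pair lay close together. Ccl3 had another order, at 1659, 3139 and 3878 CPM, with both antibodies above isotype. Il1b stood at 8479, 6675 and 13446 CPM, under the 2-fold limit. The interferon-induced chemokine Cxcl10 stood at 1437, 927 and 3574 CPM. In the monocytes of the same libraries Osm was higher by 2.51 on the log2 scale with anti-CTLA-4, Il1rn by 2.06 and Il1b by 1.2, so these differences were not seen in neutrophils alone.

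Of 35 surface receptors 8 were higher and none lower (median 0.43). Tlr2 stood at 330, 320 and 997 CPM, its partner Cd14 at 684, 605 and 1647 and the lectin Clec4d at 630, 797 and 1526, while Cxcr2 stood at 1183, 810 and 1143. Cd274 stood at 527 CPM (461 to 601), 1023 (923 to 1131) and 1599 (1411 to 1804), with Poisson intervals that cover counting error only. In monocytes Cd274 was higher with anti-CTLA-4 by 2.00 on the log2 scale. Irg1 stood at 1821, 2230 and 5641 CPM and Ptgs2 at 551, 570 and 1252; in the immune regulation list as a whole 2 of 8 were higher and none lower (median 0.39). Of the survival list 5 of 13 were higher and none lower (median 0.92), with the kinase Pim1 at 1165, 1106 and 2626 CPM and the BCL2 relative Bcl2a1b at 380, 181 and 1015. Interferon genes had 6 higher and 1 lower of 26 (median 0.66): Gbp2 stood at 980, 1087 and 3167 CPM and Irf1 at 872, 917 and 2231. The interferon genes highest with anti-PD-1, Rsad2 and Ifit2, stood at 1818 and 170 CPM with anti-CTLA-4.

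Genes lower with anti-CTLA-4 included Lrg1, a secreted glycoprotein, at 619, 376 and 146 CPM in Lyz2-low members, and Ltc4s at 213, 77.3 and 18.2. Both genes were highest with isotype and lowest with anti-CTLA-4. The heat shock gene Hspa1a stood at 277, 474 and 18.2 CPM. Neutrophil markers as a list were near level, 4 higher and 2 lower of 28 (median -0.07), with S100a8 at 25936, 21119 and 16929 CPM and Retnlg at 1725, 1402 and 1155. Among all members, Ccl24 and Ccl7 headed the ratios with 39 and 34 UMIs, each in 1 cell, followed by Sdc4, F3, Cxcl3 and Traf1. F3, tissue factor, stood at 30.5 CPM with isotype and 207 with anti-CTLA-4 in Lyz2-low members, and Traf1 at 37.5 and 231. Ldlrad3, Me2, Adh5, Mrpl12, Gm20400 and H1f0 had the lowest ratios in all members. In Lyz2-low members Sdc4 and Ldlrad3 turned direction, at -0.21 and 1.38 on the log2 scale, with at most 1 UMI in a library.

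**Figure D3:**
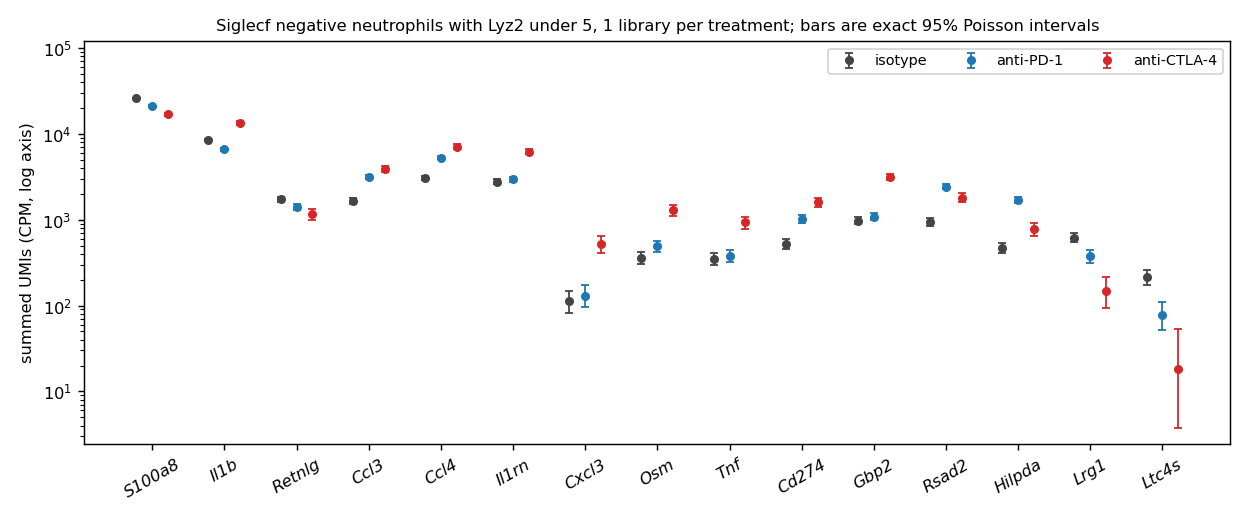
CPM of 15 genes in Lyz2-low members, 1 point per library with its exact 95% Poisson interval, which covers counting error only. Cxcl3, Osm, Tnf, Il1rn and Gbp2 are highest with anti-CTLA-4, Hilpda and Rsad2 with anti-PD-1, and Lrg1 and Ltc4s with isotype.

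**Figure D4:**
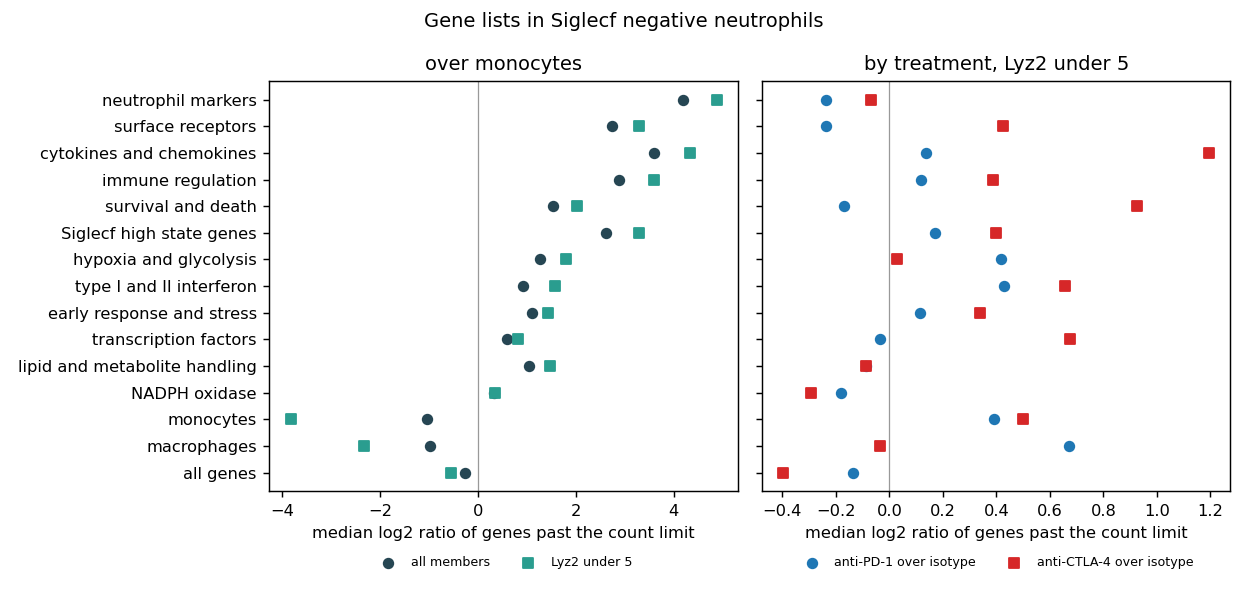
Median log2 ratio of the tested genes of each list, with members over monocytes on the left (all members and Lyz2-low members) and each antibody over isotype in Lyz2-low members on the right. Neutrophil markers, receptors and cytokines lie right of 0 on the left panel, and cytokines lie at 1.2 for anti-CTLA-4 on the right panel.

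Whole-tumour RNA gave a measurement of the same genes that the rule did not use. In untreated tumours, most tested genes of the neutrophil marker and surface receptor lists were lower in MOC1E1 than in MOC1. Values are TPM, a transcript's length-scaled share of all transcripts, fitted as log2(TPM + 1) with limma, and a gene was called at a Benjamini-Hochberg adjusted p of 0.05 or less over 15125 genes; 1014 genes were higher in MOC1E1 (6.7%) and 1806 lower (11.9%), with a median of -0.04. Leaving out 1 library at a time gave 417 to 891 higher and 800 to 1754 lower. Whether the 3 libraries of a group are separate tumours is not given, so p-values measure the spread between these samples only. In bulk RNA, fewer neutrophils and less RNA per neutrophil cannot be told apart, and carcinoma cells and other leukocytes express some of these genes too.

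Csf3r stood at 8.77, 11.55 and 8.19 TPM in the MOC1 libraries and at 1.94, 0.98 and 1.93 in the MOC1E1 libraries, a log2 difference of -2.02 (SE 0.22, limma adjusted p = 0.00145). The groups did not overlap. G0s2 stood at 3.45, 4.68 and 2.59 TPM against 1.40, 1.48 and 1.11, a difference of -0.95 (SE 0.21, limma adjusted p = 0.0214). Cxcl2 stood at 7.49, 6.70 and 3.51 TPM against 2.88, 1.26 and 0.52, a difference of -1.49 (SE 0.38, limma adjusted p = 0.0328). Neither gene overlapped between groups, but both calls were lost in 4 of 6 fits that left out 1 library. For G0s2 these were the fits without the MOC1 libraries numbered 3 and 4 in the table and the MOC1E1 libraries numbered 1 and 2 (limma adjusted p = 0.0575 to 0.0791; 0.0631 without the filter on low values). For Cxcl2 they were those without MOC1 libraries 3 and 4 and MOC1E1 libraries 1 and 3 (limma adjusted p = 0.0556 to 0.110; 0.0894 without the filter). Hcar2, which skin also expresses, stood at 22.91, 22.22 and 18.89 TPM against 16.37, 17.42 and 13.37 and was not called (difference -0.42, limma adjusted p = 0.0725). Siglecf stood at 1.5, 2.69 and 1.49 TPM against 0.52, 0.09 and 0.53, a difference of -1.06 (limma adjusted p = 0.0248), which was 0.0540 without MOC1E1 library 2.

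Of 22 neutrophil markers tested in bulk, 14 were lower and none higher (median -1.19), and of 33 surface receptors 23 were lower and 1 higher (median -0.96). Mxd1, a repressor of MYC targets, had the smallest p of the first list, at 55.5 ± 2.65 TPM in MOC1 and 11.0 ± 1.51 in MOC1E1 (SD, n = 3; limma adjusted p = 6.23e-05). Asprv1 stood at 130 ± 21.2 and 17.6 ± 2.78 TPM (SD, n = 3), and Pglyrp1, an antibacterial granule protein, at 83.0 ± 6.02 and 14.4 ± 5.09. S100a8 stood at 90.9 ± 17.1 TPM against 10.1 ± 6.11 (SD, n = 3), a log2 difference of -3.20 (limma adjusted p = 0.00208), and S100a9 differed by -3.0. By their means, Asprv1 lay above S100a8 in both bulk groups, while in the members it lay far below S100a8. TPM is scaled by transcript length and CPM of UMIs is not, so ranks between genes cannot be compared directly across the 2 measures. Whether bulk levels of this list measure neutrophils alone, and which cells carried the RNA, was not tested. Cxcr2 differed by -1.72 and Il1r2 by -1.17 (limma adjusted p = 0.00322 and 0.00629). Retnlg, Ly6g, Trem1 and Clec4e were too low to be tested.

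Of 19 cytokines and chemokines 8 were lower and none higher (median -0.58). Cxcl3, whose promoter is given above, stood at 22.4 ± 4.65 TPM in MOC1 and 0.423 ± 0.0462 in MOC1E1 (SD, n = 3), a log2 difference of -4.02 (limma adjusted p = 3.16e-05). Il1a stood at 10.4 ± 0.689 and 0.663 ± 0.110 TPM and Ccl6 at 43.6 ± 7.52 and 13.1 ± 3.49 (SD, n = 3; limma adjusted p = 6.99e-05 and 0.00184). By its mean, Cxcl3 lay above Cxcl2 in MOC1 bulk RNA but below it in MOC1E1 bulk RNA and in the members. Il1b differed by -1.75 (limma adjusted p = 0.00860). Ccl3 and Csf1 were not called (limma adjusted p = 0.194 and 0.253). Monocyte markers had 5 lower and none higher of 25 (median -0.46), among them Lgals3 at 725 ± 74.8 against 271 ± 89.2 TPM, Ccr2 at 10.9 ± 2.23 against 3.63 ± 0.797 and Klf4 at 83.5 ± 3.83 against 60.4 ± 1.2 (SD, n = 3). T and NK markers had none called of 14 (median -0.44), eosinophil markers 2 of 3 lower, mast cell and basophil markers 6 of 7 lower, and carcinoma and stroma markers 1 higher and 2 lower of 16. Hypoxia genes had 3 higher and none lower of 21 (median 0.33). Lower counts were thus shared by several leukocyte lists, and the part of each cell type was not tested.

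**Figure D5:**
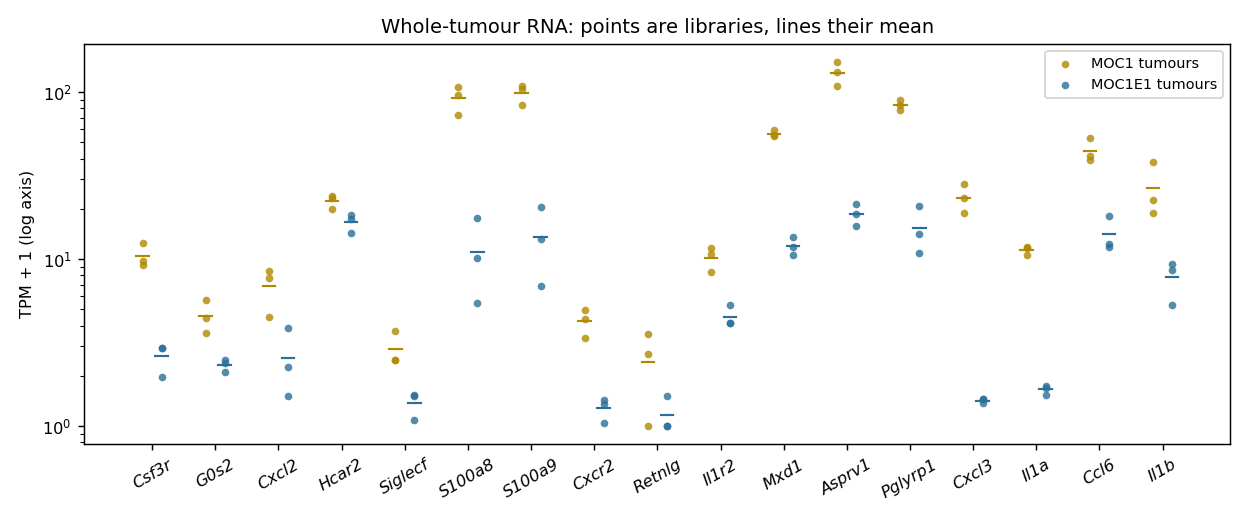
TPM plus 1 (log axis) of 17 genes in untreated MOC1 and MOC1E1 tumours, 1 point per library and a line at each mean of 3 libraries. S100a8, Cxcl3, Mxd1 and Asprv1 separate the groups widely, and Csf3r stands at 8.19 to 11.55 TPM in MOC1 against 0.98 to 1.94 in MOC1E1.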

How the data were processed

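The deposited single-cell tables hold whole UMI counts for 15411 genes, and the authors processed the reads with Cell Ranger 3.0.2 per the submitters' processing notes, which list mm10 and GRCh38 without a role. The deposited bulk table holds TPM from the authors, with Trimmomatic 0.36 and kallisto 0.46.0 in the same notes. Its depth is unknown. Members, gene lists and the comparisons were chosen with earlier results of these data known. UMIs were summed per library and cell set. CPM ratios used a prior of 0.5 UMI, and 13 genes of the rule were left out of counts. Exact Poisson and binomial 95% intervals cover counting error only. The genes named are the 12 largest ratios each way over monocytes (6 for other comparisons), list members of high CPM or past the fold, and in bulk the 3 smallest p of 3 lists; Ly6g, Camp, Ngp, Mif, Mmp8, Gdf15, Ifit2 and others in the label check, the Retnlg division and the Lyz2-low values were named after their values were seen. The bulk fit took genes with at least 1 TPM in 3 libraries (limma-trend of limma 3.58.1 under R 4.3.3). Of 55573 bulk identifiers, 55394 had a symbol. Scripts (Python 3.11.15, numpy 2.4.6, scipy 1.17.1, pandas 2.3.3) were tested on simulated data.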

Additional observations from a re-analysis of the deposited data

Results flagged for a closer look

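Ifit2, an interferon-induced antiviral gene, was 1.52 higher on the log2 scale in the members of the anti-PD-1 library than in those of the isotype library, and -1.11 in the monocytes of the same libraries. In Lyz2-low members the value was 1.57. The directions were opposite in the 2 cell sets, with 1 library per treatment, and the difference was not tested.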

How the results depend on the processing

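Of 516 single-gene values in cells, 444 stayed within the error of the reported value, 68 moved and 4 changed sign, each in Lyz2-low members: against Siglecf-positive cells Fn1 stood at -2.39 and Chil3 at -1.08, and with anti-CTLA-4 Sdc4 stood at -0.21 and Ldlrad3 at 1.38. Of the 444, 60 came from dropping the minimum of UMIs, which cannot change the ratio of a gene. In bulk, 92 of 103 kept their call and 11 lost it. Genes lower than in monocytes (276) numbered 182 with median-of-ratios scaling, 647 with Csf3r of at least 2, 547 in cells thinned to 1000 UMIs, 604 against monocytes by Lyz2 and Csf3r alone, 1460 in Lyz2-low members, and 498 to 668 without 1 library. Genes higher than in monocytes numbered 723 to 815 without 1 library. Genes higher than in Siglecf-positive cells (44) numbered 123 with median-of-ratios scaling, 27 thinned and 62 to 361 without 1 library (361 without anti-CTLA-4). Genes lower than in them (12) numbered 4, 4 and 24 to 384 (384 without anti-CTLA-4), with 19 in Lyz2-low members and 2175 with no minimum of UMIs. For anti-PD-1, genes higher (75) numbered 1518 with no minimum and 48 without each highest cell, and genes lower (59) numbered 1534, 39 and, thinned, 38. For anti-CTLA-4, genes higher (201) numbered 1312 with no minimum, 122 with Csf3r of at least 2, 93 thinned and 106 in Lyz2-low members. Genes lower (503) numbered 323 with median-of-ratios scaling, 2077 with no minimum, 297 with Csf3r of at least 2 and 182 thinned. The share of all cells, anti-PD-1 minus isotype, was -4.76 points, -3.03 thinned and -2.17 with at least 2 entry-gene UMIs; for anti-CTLA-4 it was -5.36, -2.47 with 2 entry-gene UMIs, -3.41 in Lyz2-low members and 1.51 among cells without Cd3. Among cells without Cd3, the anti-PD-1 difference was -1.48 with 2 entry-gene UMIs, and the anti-CTLA-4 difference was -1.30 with Csf3r of at least 2, -0.788 thinned and 4.49 with 2 entry-gene UMIs. In bulk, genes higher (1014) numbered 664 without the filter on low values and 417 to 891 without 1 library, and genes lower (1806) numbered 800 to 1754; the count higher was over 1.5 times smaller in every such fit but the one without MOC1E1 library 3 of the table, and the count lower in the fits without MOC1 library 3, 4 or 5. Lyz2-low members and the omission of highest cells were chosen after seeing the data. The causes were not tested. No paired analysis was possible because the MOC1 columns are numbered 3 to 5 and the MOC1E1 columns 1 to 3, and no source ties a number to a shared animal or day. A median of 1372 UMIs per member limits genes of low level, and the 4 Siglecf-positive cells with anti-CTLA-4 limit that comparison.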
